A study of Mus musculus with 9 samples.

Results

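The Nxpe family of the mouse colon is described here across 9 libraries of colitis and control tissue. The family was taken by gene symbol, which gave 4 genes, Nxpe2, Nxpe3, Nxpe4 and Nxpe5, among 35315 genes in the deposited table. It was chosen with the values of these libraries known, Nxpe2 standing at the lowest level in DSS relative to Control, so the levels and differences of the 4 genes are given as a description and without a test. All mice were wild-type C57BL/6J, 8 weeks old when treatment began, and total RNA of colon tissue was sequenced. GsMTx4 mice drank water with 2.5% DSS (dextran sulfate sodium, which damages the lining of the colon) for 7 days and were injected intravenously with GsMTx4 at 10 mg/kg on days 2, 4 and 6. GsMTx4 is a spider-venom peptide that blocks cation channels opened by mechanical force. DSS mice drank the same solution and had solvent injections on the same days, and Control mice drank normal water with no injection listed, so DSS and injection cannot be told apart against Control. Each group has 3 libraries, and nothing in the labels says whether they came from separate mice, so the errors measure the spread between these samples.

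NXPE proteins carry a neurexophilin-like region and a PC-esterase domain. A PC-esterase domain also occurs in Casd1, an enzyme of the Golgi that adds acetyl groups to sialic acids, the sugars that cap many glycans. In humans, NXPE1 has been linked to the O-acetylation of sialic acids on colonic mucins, a modification that protects mucus sugars from bacterial sialidases, and NXPE4 is known as a transcript of colonic epithelium. The mouse annotation also holds a family pseudogene, Nxpe1-ps.

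Nxpe2 (ENSMUSG00000032028) is annotated on the minus strand of chromosome 9 at 48318006 to 48353454 and Nxpe4 (ENSMUSG00000044229) on the plus strand of the same chromosome at 48162023 to 48400025 (GRCm38, GENCODE M21). All 35449 bases of the Nxpe2 body lie inside the Nxpe4 body, yet the annotated exons of the 2 genes share 0 bases. Whether reads were counted by strand is not given, so reads outside annotated exons could not be told apart between the 2 genes. Nxpe1-ps follows at 48418321 to 48431959. Nxpe3 (ENSMUSG00000075033) is on chromosome 16 at 55839953 to 55895285, minus strand, and Nxpe5 (ENSMUSG00000047592) on chromosome 5 at 138225898 to 138253363, plus strand. The longest exact stretch shared by transcripts of Nxpe2 and Nxpe4 was 51 bases, in transcripts of up to 3366 and 4871 bases, and Nxpe4 shared 73 bases with Nxpe1-ps. Nxpe3 and Nxpe5 shared at most 18 bases with each other or with any other member or the pseudogene. Reads that fall wholly inside such stretches cannot be assigned to 1 gene.

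RefSeq starts of Nxpe2 and Nxpe4 lie 21143 bases apart and point away from each other. The RefSeq start of Nxpe4 lies beyond the Nxpe2 body, so the overlap described above rests on the GENCODE transcripts of Nxpe4 that start further upstream. The RefSeq start of Nxpe2 likewise lies inside its own GENCODE body, whose upstream end is at 48353454. Starts further upstream in GENCODE are not covered by the windows of these 2 genes. The windows from 250 bases before to 50 bases after the start are shown for these 2 genes, which were both lowest in the DSS libraries, and for Nxpe3, which was highest there, with every CG dinucleotide in capitals (RefSeq, GRCm38.p6, each 5′ to 3′ on the strand of its gene: chr9:48340849-48341148 minus, chr9:48361791-48362090 plus and chr16:55895230-55895529 minus).
Nxpe2: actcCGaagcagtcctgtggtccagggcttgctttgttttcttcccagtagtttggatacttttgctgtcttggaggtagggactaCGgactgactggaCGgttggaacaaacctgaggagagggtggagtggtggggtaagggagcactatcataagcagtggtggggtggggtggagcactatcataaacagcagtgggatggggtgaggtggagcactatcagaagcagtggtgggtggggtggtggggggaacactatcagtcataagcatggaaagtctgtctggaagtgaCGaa
Nxpe4: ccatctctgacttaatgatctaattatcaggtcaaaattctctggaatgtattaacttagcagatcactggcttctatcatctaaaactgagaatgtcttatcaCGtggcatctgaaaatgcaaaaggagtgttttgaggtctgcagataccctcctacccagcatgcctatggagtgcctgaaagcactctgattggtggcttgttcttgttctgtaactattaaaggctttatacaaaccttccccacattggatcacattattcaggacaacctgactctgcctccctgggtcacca
Nxpe3: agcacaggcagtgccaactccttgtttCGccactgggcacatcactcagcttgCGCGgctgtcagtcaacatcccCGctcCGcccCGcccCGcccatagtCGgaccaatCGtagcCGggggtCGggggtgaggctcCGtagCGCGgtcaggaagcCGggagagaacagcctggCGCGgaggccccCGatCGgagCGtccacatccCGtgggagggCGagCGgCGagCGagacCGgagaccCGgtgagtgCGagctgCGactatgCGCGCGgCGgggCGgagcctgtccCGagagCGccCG

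All 4 members matched a window in the RefSeq promoter set. The Nxpe3 window held 37 CG dinucleotides and 70.7% G and C, more CG than 94.4% of the 32851 windows of that length. The Nxpe2 window held 4 CG dinucleotides at 53.3% G and C, the Nxpe4 window 1 at 42.3% and the Nxpe5 window 1 at 45.0%, where the median window had 7 at 52.7%. Windows with fewer CG made up 31.4% for Nxpe2 and 5.43% for both Nxpe4 and Nxpe5, so the CG count did not separate Nxpe2 and Nxpe4 from Nxpe5. A short word repeats in the Nxpe2 window. CACTATCA stands there 4 times, and of all windows it is the 1 with that many copies, a word picked after seeing the sequence.

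The windows were searched on both strands for 8 motifs. The promoter element TATAAA occurs in 13.6% of all windows and the element CCAAT in 37.4%. The Cdx motif was spelled TTTATNG and occurs in 10.9% of windows. The motif of Gata factors was spelled AGATAA and occurs in 11.2%. The motif of Tcf and Lef factors was spelled ATCAAAG and occurs in 3.73%. The Foxa motif was spelled TGTTTAC and occurs in 3.65%. The Hnf4a motif was spelled CAAAGTNCA and occurs in 1.41%, and the NF-kB motif in 0.411%. Nxpe4 held TATAAA on the opposite strand from base -20 and CCAAT on the opposite strand from bases -57 and 1, counted from the start as base 1. CCAAT was also found at base -146 of Nxpe3 and, on the opposite strand, at base 38 of Nxpe5, and no matches overlapped. None of the 8 was found in the Nxpe2 window, which says only that these letters are not in it.

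Nxpe2 and Nxpe4 carried most of the family's transcript in Control colon, and both stood far lower in DSS and higher again in GsMTx4. Nxpe2 was at 11.9, 41.0 and 31.0 FPKM (fragments per kilobase of transcript, scaled to library size) in GsMTx4 1, 2 and 3, at 2.78, 1.15 and 1.83 FPKM in DSS 1, 2 and 3, and at 65.5, 85.8 and 84.1 FPKM in Control 1, 2 and 3. No library of one group reached the range of another, and GsMTx4 1 was the lowest of its group. The means were 27.9 ± 14.8 FPKM in GsMTx4, 1.92 ± 0.818 FPKM in DSS and 78.4 ± 11.3 FPKM in Control (SD, n = 3 each). By mean level Nxpe2 ranked 1844 in GsMTx4, 11342 in DSS and 646 in Control among 35315 genes. In bulk tissue, fewer cells of a type and less RNA per cell cannot be told apart.

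Nxpe4 was at 22.8, 34.8 and 26.1 FPKM in GsMTx4 1, 2 and 3, at 11.1, 9.45 and 7.62 FPKM in DSS 1, 2 and 3, and at 32.6, 40.1 and 35.5 FPKM in Control 1, 2 and 3. DSS did not overlap either other group, while GsMTx4 2 lay inside the Control range. GsMTx4 1 was again the lowest of its group. The means were 27.9 ± 6.18 FPKM in GsMTx4, 9.40 ± 1.77 FPKM in DSS and 36.04 ± 3.77 FPKM in Control (SD, n = 3 each).

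**Figure D1:**
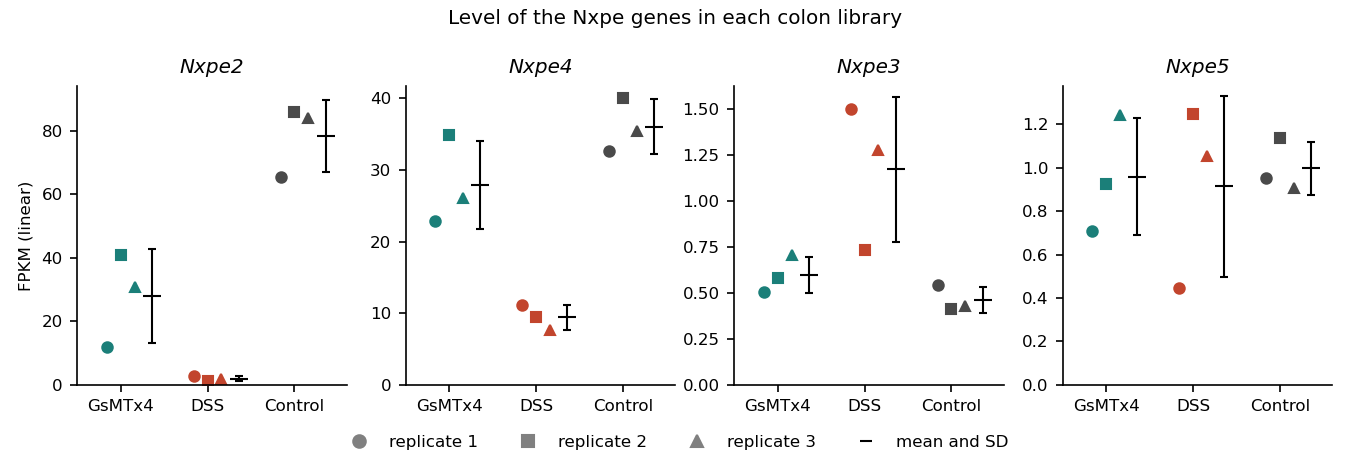
FPKM of the 4 Nxpe genes in each library on linear axes starting at 0, GsMTx4, DSS and Control from left to right, with the mean and SD of 3 libraries beside the points. Nxpe2 and Nxpe4 are lowest in the 3 DSS libraries, Nxpe3 is highest there, and the Nxpe5 groups overlap.

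Nxpe3 ran the other way at a low level. It stood at 0.506, 0.580 and 0.703 FPKM in GsMTx4 1, 2 and 3, at 1.499, 0.732 and 1.28 FPKM in DSS 1, 2 and 3, and at 0.542, 0.414 and 0.428 FPKM in Control 1, 2 and 3. The lowest DSS library, DSS 2, lay just above GsMTx4 3, and the ranges of GsMTx4 and Control overlapped. Group means were 0.597 ± 0.0995 FPKM in GsMTx4, 1.17 ± 0.395 FPKM in DSS and 0.461 ± 0.0702 FPKM in Control (SD, n = 3 each).

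Nxpe5 showed no separation of the groups. Its values were 0.707, 0.924 and 1.24 FPKM in GsMTx4 1, 2 and 3, 0.446, 1.25 and 1.05 FPKM in DSS 1, 2 and 3, and 0.951, 1.14 and 0.906 FPKM in Control 1, 2 and 3. All 3 ranges overlapped. In Control, FPKM per gene put Nxpe2 highest, then Nxpe4, Nxpe5 and Nxpe3, with no overlap between neighbours. In DSS the order was Nxpe4, Nxpe2, Nxpe3 and Nxpe5, where Nxpe2 and Nxpe3 overlapped, as did Nxpe3 and Nxpe5. In GsMTx4, Nxpe2 and Nxpe4 were level in their means and overlapped, above Nxpe5 and Nxpe3.

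The fragments behind these values can be estimated roughly, because low values of single-exon genes tended to come in steps. By library, 30.6 to 36.2% of those values lay within 0.05 of a whole number of steps, and the rest did not. The step was set from the same values, so part of that share is built in and it is weak support for the estimates. A fragment over 1 kb was worth 0.0466 to 0.0664 FPKM, with the GsMTx4 libraries at 0.0582 to 0.0664 and so among the shallower ones. Taking each gene's longest transcript, Nxpe2 then rested on about 688 to 2104 fragments in GsMTx4, 83 to 194 in DSS and 4322 to 6058 in Control. Nxpe3 rested on about 56 to 68 fragments in GsMTx4, 101 to 200 in DSS and 56 to 68 in Control, and Nxpe5 on 33 to 96 in any library. FPKM sums ran from 349125 to 440935 and 12830 to 14036 genes reached 1 FPKM per library.

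Differences between groups are given on the log2(FPKM + 1) scale, which understates those of low genes, with the SE from limma fitted over all tested genes. A gene was tested if 3 or more of the 9 libraries had 1 FPKM or above, which left 14360. Nxpe2 and Nxpe4 reached 1 FPKM in 9 libraries and Nxpe5 in 4, just inside that limit, while Nxpe3 reached it in 2, just outside, and has its SE from a fit of all 35315 genes.

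Nxpe2 differed by -4.79 ± 0.40 in DSS against Control, the lowest value among the 14360 tested genes, by 3.18 ± 0.40 in GsMTx4 against DSS, where 3 tested genes had a higher value, and by -1.61 ± 0.40 in GsMTx4 against Control, the 30th lowest. In mean FPKM its Control level was 40.8 times the DSS level, and its GsMTx4 level 14.5 times the DSS level and 0.356 times the Control level. Nxpe4 differed by -1.84 ± 0.19 in DSS against Control, by 1.47 ± 0.19 in GsMTx4 against DSS and by -0.37 ± 0.19 in GsMTx4 against Control. The same DSS libraries enter both of the first comparisons, so opposite signs in them are not separate observations. Nxpe3 differed by 0.55 ± 0.15, -0.43 ± 0.15 and 0.13 ± 0.15 in these comparisons, taken in that order. Nxpe5 differed by -0.08 ± 0.19, 0.05 ± 0.19 and -0.04 ± 0.19 in the same comparisons, each within its SE.

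Groups did not overlap for Nxpe2, Nxpe3 and Nxpe4 in DSS against Control, beside 47.1% of all tested genes, for the same 3 in GsMTx4 against DSS, beside 30.3%, and for Nxpe2 in GsMTx4 against Control, beside 19.6%. Since the family was chosen on these comparisons, nothing is read from those counts.

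Nxpe2 did not keep step with Nxpe4. The family was chosen with Nxpe2 known to be lowest in DSS against Control. Its ratio to nearly any other gene would therefore be lower in DSS, so the ratios are a description. The ratio of Nxpe2 to Nxpe4 FPKM within a library, which no library scaling can change, was 0.521, 1.18 and 1.19 in GsMTx4 1, 2 and 3. It was 0.250, 0.122 and 0.240 in DSS 1, 2 and 3 and 2.01, 2.14 and 2.37 in Control 1, 2 and 3. The groups did not overlap, and the means were 0.962 ± 0.382 in GsMTx4, 0.204 ± 0.0710 in DSS and 2.17 ± 0.183 in Control (SD, n = 3 each). Nxpe4 exceeded Nxpe2 in every DSS library and in GsMTx4 1, and Nxpe2 exceeded Nxpe4 in GsMTx4 2, GsMTx4 3 and every Control library.

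**Figure D2:**
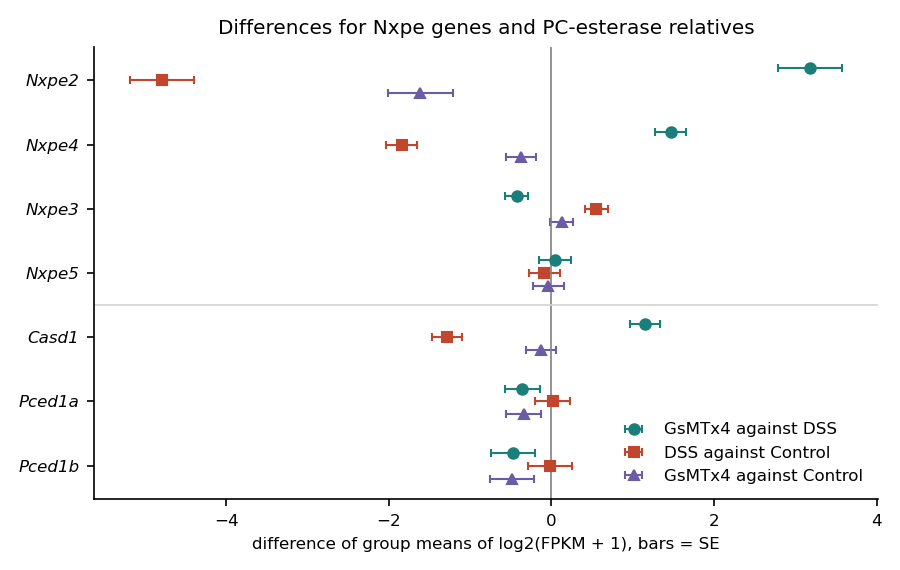
Differences of group means on the log2(FPKM + 1) scale with SE, for the 4 Nxpe genes above the line and 3 tested relatives with a PC-esterase domain below it. Nxpe2 at -4.79, Nxpe4 at -1.84 and Casd1 at -1.28 lie left of 0 in DSS against Control and right of 0 in GsMTx4 against DSS.

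Casd1, the sialic acid O-acetyltransferase with a PC-esterase domain, fell in DSS relative to Control and rose in GsMTx4 relative to DSS. It stood at 38.0, 43.1 and 27.5 FPKM in GsMTx4 1, 2 and 3, at 18.2, 13.1 and 15.3 FPKM in DSS 1, 2 and 3, and at 38.2, 40.1 and 38.4 FPKM in Control 1, 2 and 3. The DSS libraries lay below all others, and GsMTx4 1, lowest of its group in Nxpe2 and Nxpe4, was just below the Control range here. Casd1 differed by -1.28 ± 0.18 in DSS against Control (adjusted p = 0.00311), by 1.16 ± 0.18 in GsMTx4 against DSS (adjusted p = 0.0066) and by -0.12 ± 0.18 in GsMTx4 against Control (adjusted p = 0.847). The first 2 calls held in every alternative run, with adjusted p at most 0.0177 and at most 0.0353.

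The other relatives were at low levels. The list of relatives held 8 genes, those that share a domain with the family and the pseudogene Nxpe1-ps, and 3 were tested. Casd1 alone passed, 1 lower in DSS against Control beside 10.7% of tested genes called lower, and 1 higher in GsMTx4 against DSS beside 6.66% called higher. Over all genes DSS against Control gave 921 higher and 1541 lower calls, and 1342 higher and 949 lower after median-of-ratios scaling. Pced1a, which has a PC-esterase domain, stood at 1.32 ± 0.297 FPKM in GsMTx4, 2.03 ± 0.878 FPKM in DSS and 1.92 ± 0.277 FPKM in Control (SD, n = 3 each). Its kin Pced1b stood at 0.739 ± 0.40 FPKM in GsMTx4, 1.39 ± 0.356 FPKM in DSS and 1.49 ± 0.781 FPKM in Control. Neither passed in any comparison. The neurexophilin genes Nxph1, Nxph2, Nxph3 and Nxph4, which encode secreted ligands of alpha-neurexins in neurons, did not reach the limit for testing, with group means of at most 0.462 FPKM in DSS. Nxpe1-ps stood at 0.113 ± 0.0291 FPKM in GsMTx4, 0.338 ± 0.20 FPKM in DSS and 0.247 ± 0.0617 FPKM in Control. In GsMTx4 against Control 0 of the 3 relatives passed in limma, beside 0.188% of all tested genes called higher and 0.0487% called lower. None of the 3 had an unadjusted p under 0.05 there, beside 1456 of all 14360 genes. Nothing is read from so few genes.

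Several genes of sialic acid handling were lower in DSS. The list, which covers the supply, transfer, O-acetyl handling and removal of sialic acid, had 35 gene models in the table and 23 tested, of which 8 fell, 1 rose and 14 did not pass in DSS against Control, beside 10.7% of all tested genes lower and 6.41% higher. The median difference of the list was -0.23 and that of all tested genes -0.17. St6galnac4, a sialyltransferase of mucin-type glycans, fell to 3.82 ± 0.178 FPKM in DSS, against 10.9 ± 0.633 FPKM in Control (-1.31 ± 0.18, adjusted p = 0.00257). St6galnac2, of the same enzyme family, fell by 1.65 on the log2 scale (SE 0.21, adjusted p = 0.00207), but it is 1 of 2 overlapping gene models with that symbol, whose reads cannot be kept apart with certainty. The other model also passed (-1.19 ± 0.25, adjusted p = 0.0146), but not without Control 2 or Control 3 (adjusted p = 0.0638 and 0.0591). Neu3, a sialidase of the cell surface, fell to 1.49 ± 0.209 FPKM in DSS, against 5.34 ± 1.18 FPKM in Control (-1.34 ± 0.20, adjusted p = 0.00404). St3gal1, which caps core 1 O-glycans with sialic acid, rose to 6.74 ± 2.26 FPKM in DSS, against 1.87 ± 0.193 FPKM in Control (1.39 ± 0.23, adjusted p = 0.00533).

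Siae, the esterase that removes O-acetyl groups from sialic acid and so opposes Casd1, fell to 1.68 ± 0.225 FPKM in DSS, against 2.67 ± 0.0872 FPKM in Control (-0.45 ± 0.12, adjusted p = 0.0357). That call was lost without Control 1, Control 2, Control 3, DSS 2 or DSS 3 (adjusted p = 0.0891, 0.127, 0.111, 0.0801 and 0.0823) and after TPM rescaling (adjusted p = 0.0541) or median-of-ratios scaling (adjusted p = 0.0796). Calls in the list numbered 5 without Control 2 or Control 3, against 9 with all libraries.

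With GsMTx4, 4 of the 23 tested genes of sialic acid handling passed against DSS, 2 higher beside 6.66% of all tested genes and 2 lower beside 5.62%. Casd1 and Neu3, at 3.37 ± 0.966 FPKM in GsMTx4 against 1.49 ± 0.209 FPKM in DSS (0.79 ± 0.20, adjusted p = 0.0374), were the 2 that rose. St3gal1 fell to 2.56 ± 0.637 FPKM in GsMTx4, against 6.74 ± 2.26 FPKM in DSS (-1.10 ± 0.23, adjusted p = 0.0178). Npl, which breaks down free sialic acid, fell to 1.87 ± 0.495 FPKM in GsMTx4, against 3.599 ± 0.891 FPKM in DSS (-0.68 ± 0.18, adjusted p = 0.0437). The Neu3 call was lost without Control 2, any 1 DSS library, GsMTx4 2 or GsMTx4 3, and the Npl call without any library other than DSS 1 or GsMTx4 3, with adjusted p up to 0.126 and up to 0.139. With no filter or in a fit of 2 groups, the calls for Neu3 (adjusted p = 0.103 and 0.0831), Npl (0.107 and 0.117) and St3gal1 (0.0629 and 0.0603) were lost. The list's calls numbered 5 without GsMTx4 1 and 2 without Control 2, DSS 3 or GsMTx4 2. In GsMTx4 against Control, 0 of 23 passed in limma, beside 0.188% of all tested genes called higher and 0.0487% called lower. An unadjusted p under 0.05 was found for 5 of the 23, beside 1456 of all 14360.

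Mucin genes encode carriers of sialylated glycans. The table held 13 of them and 7 were tested, and in DSS against Control 3 rose, 0 fell and 4 did not pass, beside 6.41% of all tested genes higher. Muc13, a membrane mucin of the colon, was at 1207 ± 280 FPKM in DSS, against 573 ± 42.2 FPKM in Control (1.05 ± 0.31, adjusted p = 0.0466). Muc1, another membrane mucin, was at 7.39 ± 2.24 FPKM in DSS, against 3.41 ± 0.181 FPKM in Control (0.90 ± 0.20, adjusted p = 0.0171). Emcn, an endothelial sialomucin, rose as well (0.47 ± 0.13, adjusted p = 0.0396), and the summed FPKM of 5 endothelial markers, Emcn among them, was 13.8 to 26.4 in DSS and 8.31 to 11.8 in Control. The part of the endothelial markers in the Emcn value was not tested. Muc2, the gel-forming mucin of goblet cells, was at 147 ± 97.5 FPKM in GsMTx4, 299 ± 172 FPKM in DSS and 213 ± 49.2 FPKM in Control and did not pass (adjusted p = 0.701 in DSS against Control and 0.23 in GsMTx4 against DSS). Calls in the mucin list numbered 0 without Control 1, Control 2 or Control 3 and 1 without DSS 1, DSS 2, DSS 3 or GsMTx4 2. In GsMTx4 against DSS 0 of 7 passed in limma, beside 6.66% of all tested genes called higher and 5.62% called lower. In GsMTx4 against Control 0 of 7 passed in limma, beside 0.188% and 0.0487%. An unadjusted p under 0.05 was found for 1 of 7 in GsMTx4 against DSS, beside 4324 of all 14360 genes, and for 4 of 7 in GsMTx4 against Control, beside 1456.

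Within 500 kb of the span of Nxpe2 and Nxpe4 on chromosome 9 the table held 13 other genes, 6 of them tested. In limma 0 of 6 passed in each of the 3 comparisons. Of all tested genes, 6.41% were called higher and 10.7% lower in DSS against Control. The shares were 6.66% and 5.62% in GsMTx4 against DSS, and 0.188% and 0.0487% in GsMTx4 against Control. Tests of 6 genes are too few to tell 0 from those shares, so nothing is read from it. In DSS against Control 1 of 6 had an unadjusted p under 0.05, beside 5014 of all 14360 genes. None had it in GsMTx4 against DSS or GsMTx4 against Control, beside 4324 and 1456 of all 14360. Rexo2, an exonuclease gene 68.5 kb to the right, is the nearest protein-coding neighbour on that side, at 9.90 ± 0.702 FPKM in GsMTx4, 13.5 ± 4.98 FPKM in DSS and 10.4 ± 0.474 FPKM in Control (SD, n = 3 each). Its difference was 0.30 ± 0.21 in DSS against Control (adjusted p = 0.327). Cadm1, a cell adhesion gene at -304 kb on the other side, was below the limit for testing, at 0.770 ± 0.189 FPKM in DSS and 0.751 ± 0.381 FPKM in Control. Nnmt, nicotinamide N-methyltransferase, differed by 0.83 ± 0.28 in DSS against Control (adjusted p = 0.0711) and passed without DSS 1 (adjusted p = 0.0204).

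**Figure D3:**
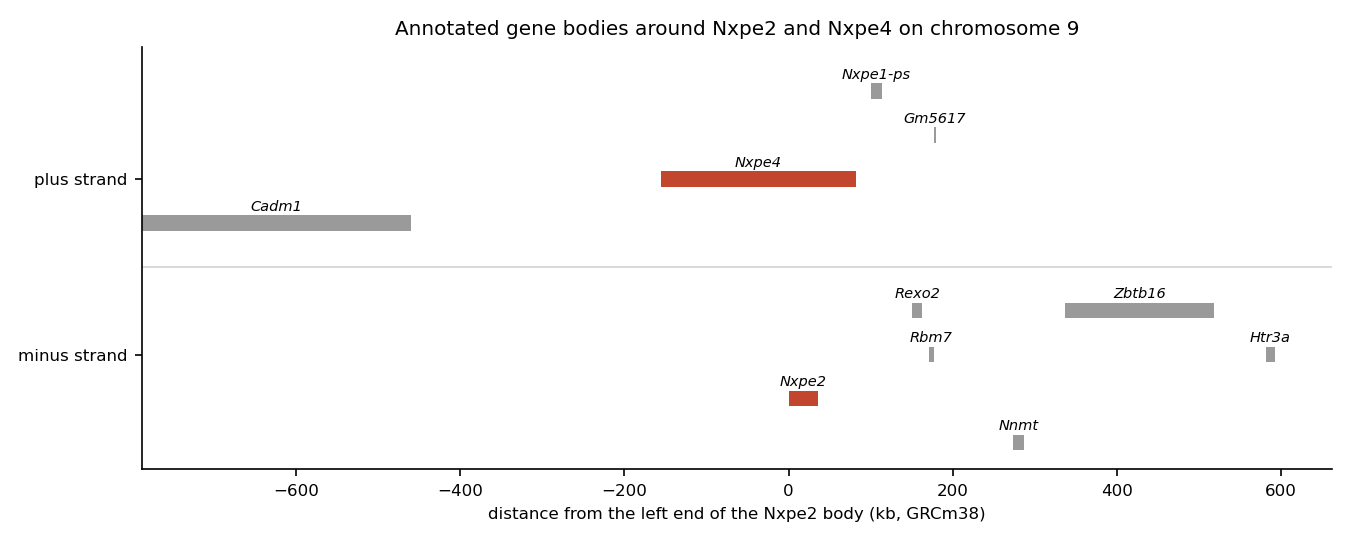
Annotated bodies of Nxpe2 and Nxpe4 in red and of protein-coding neighbours and Nxpe1-ps in grey, by strand, against distance in kb from the left end of the Nxpe2 body. Nxpe2 lies within the Nxpe4 body on the opposite strand, and Rexo2 lies 68.5 kb beyond the right end of Nxpe4.

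The pan-epithelial and the secretory marker sums overlapped between all groups, while the colonocyte sums of GsMTx4 and DSS did not. The summed FPKM of 10 pan-epithelial markers, such as Epcam and Krt8, was 4981 to 6057 in GsMTx4, 4967 to 6770 in DSS and 5008 to 6398 in Control, and their median difference in DSS against Control was 0.01. Of the 10, 1 was called lower in DSS against Control, and 1 was called higher and 1 lower in GsMTx4 against DSS. Cdx1, an intestinal transcription factor on that list, stood at 156 ± 15.0 FPKM in GsMTx4, 93.0 ± 13.2 FPKM in DSS and 161 ± 16.4 FPKM in Control (SD, n = 3 each). Other genes of the list ran differently. Krt20 stood at 442 ± 15.1 FPKM in GsMTx4, 796 ± 137 FPKM in DSS and 555 ± 71.4 FPKM in Control. Cdx2 stood at 14.6 ± 15.7 FPKM in GsMTx4, 21.0 ± 8.93 FPKM in DSS and 34.9 ± 8.12 FPKM in Control. Markers of colonocytes summed to 871 to 1249 FPKM in GsMTx4, 1449 to 2103 FPKM in DSS and 947 to 1592 FPKM in Control. Goblet and deep crypt secretory markers summed to 3081 to 4743 FPKM in GsMTx4, 3267 to 7005 FPKM in DSS and 4585 to 6274 FPKM in Control, with 2 of 10 genes lower and 1 higher in DSS against Control. That sum is weighted to high genes such as Zg16, at 1338, 2356 and 2139 FPKM on average in GsMTx4, DSS and Control. It hides genes that ran in opposite directions. In the same order, Reg4 averaged 113, 13.4 and 214 FPKM, Atoh1 18.8, 11.0 and 33.0 FPKM, and Retnlb 15.2, 162 and 13.7 FPKM. Of 7 tested colonocyte markers, 2 were higher and 1 lower in DSS against Control, where 6.41% of all tested genes were called higher and 10.7% lower. In GsMTx4 against DSS, 2 of the 7 were higher and 2 lower, beside 6.66% and 5.62% of all tested genes. On average, Aqp8 (348 against 103 FPKM) and Slc26a3 (142 against 91.3 FPKM) were higher in GsMTx4 than in DSS. Car4 (317 against 620 FPKM) and Car1 (81.5 against 470 FPKM) were lower, so the genes did not all follow the sum.

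Crypt base markers, like Nxpe2 and Nxpe4, were lowest in DSS by their sum. The 8 genes of that list, among them the stem cell markers Lgr5, Ascl2 and Smoc2, summed to 24.6, 71.0 and 43.9 FPKM in GsMTx4 1, 2 and 3, to 14.7, 13.5 and 18.9 FPKM in DSS 1, 2 and 3 and to 63.9, 66.4 and 68.5 FPKM in Control 1, 2 and 3. GsMTx4 1 is the lowest and GsMTx4 2 the highest of the group, which is the order of Nxpe2 and Nxpe4 too. Pced1a, which passed in no comparison, has that order as well, and GsMTx4 1 is also lowest in Nxpe3 and Nxpe5. Nothing is read from the order. Of 7 tested members 6 fell in DSS against Control, beside 10.7% of all tested genes, with a median difference of -1.91, beside -0.17 over all. In GsMTx4 against DSS 3 of the 7 rose, beside 6.66%, with a median of 1.20, beside 0.07 over all. Most of the crypt base sum came from Slc12a2 and Cdca7. They averaged 19.3 and 13.7 FPKM in GsMTx4, 5.86 and 4.11 FPKM in DSS and 26.1 and 15.4 FPKM in Control. Lgr5, below the limit for testing, was at 0.268 ± 0.254 FPKM in GsMTx4, 0.0148 ± 0.0092 FPKM in DSS and 0.941 ± 0.0887 FPKM in Control (SD, n = 3 each). Leukocyte markers summed to 321 to 408 FPKM in GsMTx4, 668 to 903 FPKM in DSS and 188 to 329 FPKM in Control. The 6 distal colon genes summed to 192 to 352 FPKM in GsMTx4, 66.5 to 178 FPKM in DSS and 180 to 263 FPKM in Control. Hoxb13 made up most of that sum, at 168 FPKM in GsMTx4, 81.3 FPKM in DSS and 156 FPKM in Control on average, while the median difference of the list in DSS against Control was -0.10. Hoxd13 ran otherwise, at 60.9 ± 28.2 FPKM in GsMTx4, 31.7 ± 23.5 FPKM in DSS and 23.1 ± 28.9 FPKM in Control. Of the 6 distal genes 0 were called in DSS against Control, beside 6.41% of all tested genes higher and 10.7% lower. The part of crypt base cells, leukocytes or colon position in the Nxpe values was not tested.

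**Figure D4:**
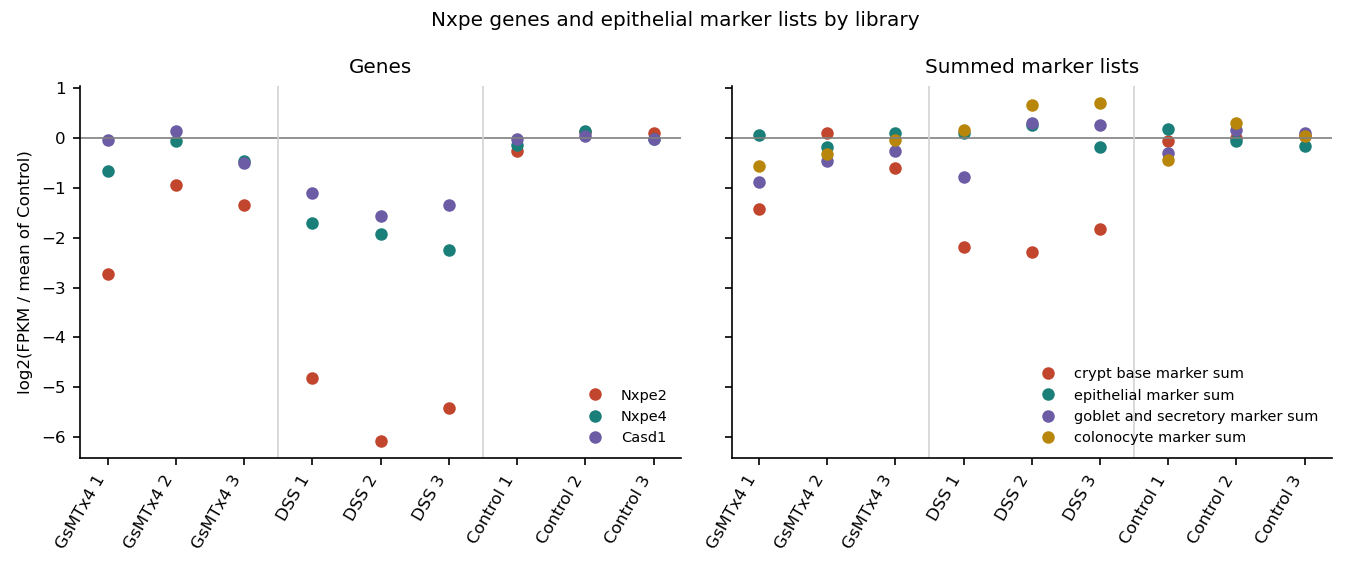
Left, log2 of FPKM over the Control mean for Nxpe2, Nxpe4 and Casd1 in each library; right, the same for summed marker lists. The pan-epithelial sum stays near 0 throughout, while the crypt base sum is lowest in the DSS libraries and, within GsMTx4, lowest in GsMTx4 1.

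The genes most like Nxpe2 were found by the root mean square difference, over the 9 libraries, of log2(FPKM + 1) after subtracting each gene's own mean, which counts the size of a change as well as its shape. Reg4, a secreted lectin of deep crypt secretory cells, and 1 of the secretory markers summed above, was closest at 0.595, followed by Cdo1, a cysteine dioxygenase, at 0.66, Nox1, a NADPH oxidase of colonic epithelium, at 0.666, Gstm3, a glutathione transferase, at 0.674 and Acer1, an alkaline ceramidase, at 0.72, where the median over 14360 genes was 1.99. Reg4 stood at 38.4, 127 and 174 FPKM in GsMTx4 1, 2 and 3, at 21.5, 13.9 and 4.91 FPKM in DSS 1, 2 and 3, and at 230, 215 and 196 FPKM in Control 1, 2 and 3. As for Nxpe2, the groups did not overlap and GsMTx4 1 was the lowest of its group. Nxpe4 itself came 69th by closeness to Nxpe2, at 1.26, while Nxpe2 came 13503rd of 14360 by closeness to Nxpe4, past the median. Because the measure counts size, these ranks do not tell whether the 2 genes differ in shape.

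Nxpe4 had closer company. Akr1c14, an aldo-keto reductase, was nearest at 0.166, followed by Cth, which makes cysteine from cystathionine, at 0.181, Ttll6, a tubulin glutamylase, at 0.182, Glt1d1, a glycosyltransferase domain gene, at 0.183 and Ugt2b34, a glucuronosyltransferase, at 0.193, beside a median of 0.795. Akr1c14 stood at 69.8 ± 13.4 FPKM in GsMTx4, 27.8 ± 6.27 FPKM in DSS and 77.6 ± 2.94 FPKM in Control (SD, n = 3 each). Of the 10 genes, 9 were lowest in GsMTx4 1 within their group, Ttll6 being the exception. These genes were picked for likeness in the same libraries, so their values are a description.

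**Figure D5:**
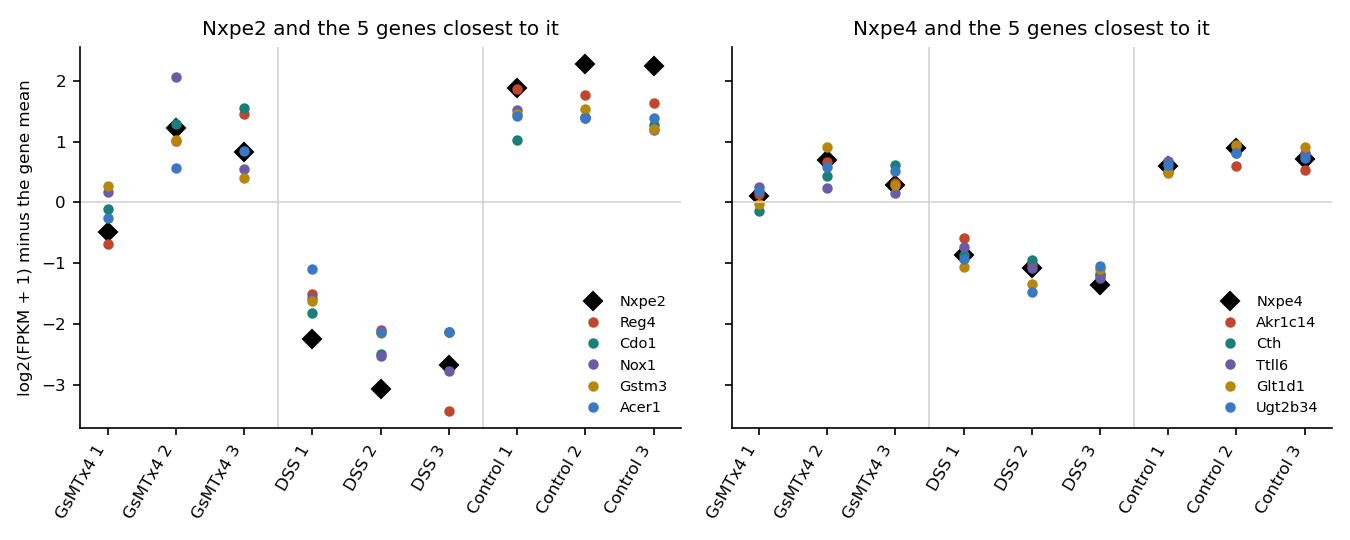
log2(FPKM + 1) minus the gene's mean over 9 libraries for Nxpe2 with its 5 closest genes and for Nxpe4 with its 5 closest. Black diamonds mark the Nxpe gene, and the points around Nxpe4 lie closer together than those around Nxpe2.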

How the data were processed

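Total RNA of colon tissue was extracted with Trizol and made into 9 Illumina libraries, 3 in each of 3 groups, per the labels' protocols. Groups and replicate numbers come from the sample titles. The authors deposited 1 table of FPKM values for 35315 genes. The submitters' processing notes name cutadapt, FastQC and the build GRCm38. Which aligner and quantifier made the values is not given in the sources used here, nor is read length or strand.

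Because the deposited FPKM values are scaled for length and depth, no count test was used. Depth was inferred from the steps of low values in genes with 1 transcript of 1 exon, and fragment numbers are approximate. Symbols were found for 35196 genes. limma 3.58.1 in R 4.3.3 fitted log2(FPKM + 1) of all 9 libraries with a mean for each group (residual degrees of freedom 6; empirical Bayes, trend), after a filter at 1 FPKM in 3 libraries. Tests were two-sided, with Benjamini-Hochberg adjustment over 14360 genes and a threshold of 0.05. The fit was tested on simulated data. Promoter windows are from RefSeq. Figures were drawn with matplotlib 3.10.9.

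The members and lists were chosen with earlier results of these data known. Besides the members, the text names all relatives, Casd1, Siae and Muc2, the 4 passing sialic acid and mucin genes of smallest p per comparison, passing or nearest neighbours, and the 5 genes most like Nxpe2 and Nxpe4 each, predicted genes left out. Nnmt, St3gal1 in DSS against Control and the marker genes named were added after their values were seen. Alternatives were a pseudocount of 0.1, no filter, a mean FPKM of at least 5, rescaling to a common sum (TPM), median-of-ratios scaling, a replicate block, a fit of 2 groups, the epithelial list as reference, and each library left out.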

Additional observations from a re-analysis of the deposited data

How the results depend on the processing

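Nxpe2 and Nxpe4 kept the sign of their difference in all 17 alternatives in each comparison. For any member, several alternatives cannot change a difference of group means and return the main value. These are no filter, a mean FPKM of at least 5, the replicate block, a fit of 2 groups, and leaving out a library outside the comparison. The counts of kept signs include them, so the counts overstate how far the signs were tried. Nxpe2 ran from -5.35 to -4.59 in DSS against Control, 2.83 to 3.70 in GsMTx4 against DSS and -1.96 to -1.11 in GsMTx4 against Control, and Nxpe4 from -2.00 to -1.67, 1.30 to 1.60 and -0.54 to -0.15. Nxpe3 kept its sign in 16 of 16, but its value depends on the scale: 1.13, -0.82 and 0.31 in the 3 comparisons with a pseudocount of 0.1, 0.81 and -0.65 in the first 2 after TPM rescaling, and 0.35 in GsMTx4 against Control relative to the epithelial list. Nxpe5 kept its sign in 14, 14 and 12 of 16, and without 1 library ran from -0.21 to 0.11, -0.14 to 0.18 and -0.14 to 0.06. Without 1 library Nxpe3 ran from 0.44 to 0.71, -0.58 to -0.32 and 0.08 to 0.17. TPM rescaling moved the median of all genes by -0.11 in DSS against Control and in GsMTx4 against Control. Median-of-ratios scaling moved it by 0.14 in DSS against Control and by 0.096 in GsMTx4 against Control. In DSS against Control the latter gave 1342 calls higher and 949 lower in place of 921 and 1541.

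All genes called in DSS against Control numbered 2462, and 1636 with no filter, 1571 at a mean FPKM of at least 5, and 963 to 3101 without 1 library, with 963 to 1278 without any 1 Control library. In GsMTx4 against DSS they numbered 1763, and 1052 with no filter, 587 in a fit of 2 groups and 716 to 1977 without 1 library, moving by over 1.5 times without Control 2, Control 3, DSS 3 or GsMTx4 2. In GsMTx4 against Control they numbered 34, and 21 with a pseudocount of 0.1, 54 with no filter, 5 at a mean FPKM of at least 5 and 13 to 83 without 1 library, moving by over 1.5 times without any 1 Control or GsMTx4 library. Sialic acid calls were 5 at a mean FPKM of at least 5 in DSS against Control, and 2 with no filter, 1 at a mean FPKM of at least 5 and 1 in a fit of 2 groups in GsMTx4 against DSS, and ran from 5 to 10 and 2 to 5 without 1 library. Mucin calls in DSS against Control were 1 with no filter, 1 after TPM rescaling and 0 to 3 without 1 library. Relatives called in GsMTx4 against DSS were 2 with no filter, and neighbours called in DSS against Control 0 to 1 without 1 library. The cause was not tested.

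Same-numbered libraries deviated together with correlations of -0.233 to 0.0998, and at most 2 of 6 libraries correlated best with their own number, so the numbers do not pair the samples. With the replicate block, 1078 genes were called in GsMTx4 against DSS, and Siae in DSS against Control (adjusted p = 0.0842) and Neu3 in GsMTx4 against DSS (adjusted p = 0.059) did not pass. The block leaves the differences of the Nxpe genes as they are, -4.79 for Nxpe2 in DSS against Control. The Nxpe2 values in DSS rest on about 83 to 194 fragments per library and those of Nxpe3 and Nxpe5 on at most 200.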
